A study of Mus musculus with 7 samples.

Results

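The genes described here run the cell division cycle: the cyclins and their kinases, the factors that load and copy DNA, and the machinery of mitosis. A list of 43 gene symbols was taken, chosen by name and function with earlier results of these data known. A gene counted as measured where the array annotation gave a row of the table that symbol alone. That held for 39 of the 43, out of 18820 genes in all. The rows of Ccne2, Foxm1 and Tyms carry a second gene's symbol, and no row carried Ccnb1. For the 5 genes with more than 1 such row, the brightest row on average was used.

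The cells were 3T3-L1, an established mouse line of fibroblast-like fat cell precursors. All cultures were driven towards fat cells for 2 days with a mixture of human insulin, dexamethasone and isobutylmethylxanthine, and were then held in human insulin. One group of 4 received DMSO alone, and the other group of 3 received 1 µM of a purchased compound that blocks stearoyl-CoA desaturase (SCD), the enzyme that puts the double bond into saturated fatty acids; both were given from the start of differentiation to day 7. Each sample was read on 1 Affymetrix array, so every value is a log2 transcript level of a whole culture of 1 cell line. The compound's name is not given in the sources used here, and the labels do not say whether replicates were separate cultures, so a p-value here reflects the spread among these arrays alone, and that spread may be technical.

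As background, a cell passes from G1 into S phase when D-type cyclins with CDK4 or CDK6, and then cyclin E with CDK2, phosphorylate the retinoblastoma family and free E2F factors to switch on DNA replication genes. Cyclin A and cyclin B with CDK1 carry the cell on into mitosis. Confluent 3T3-L1 cells given the hormone mixture divide again before they turn into fat cells, a step called mitotic clonal expansion, and then leave the cycle.

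With the inhibitor, 1 of the 39 measured genes rose and 2 fell, while 36 did not pass. Cyclin D1 rose 1.38-fold, its kinase partner Cdk6 was 1.32-fold lower, and cyclin E1 was 1.14-fold lower. The threshold for a call was 0.05 on limma's p after adjustment over all 18820 genes. The 3 called genes are 7.69% of those measured, beside 8.0% of all genes (3.62% higher and 4.37% lower), so the share is near the background. The median difference over the 39 genes was -0.050 on the log2 scale, beside -0.004 over all genes, and 25 of the 39 differences were below 0, or 64.1% against 52.7% of all genes. At an unadjusted p under 0.05 there were 3 higher and 10 lower genes, 33.3% of the 39 against 21.9% of all. Centring each array on its median changed the calls to 2 higher and 5 lower, beside 1296 higher and 1030 lower of all genes. That is 17.9% of the measured genes and 12.4% of all.

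**Figure D1:**
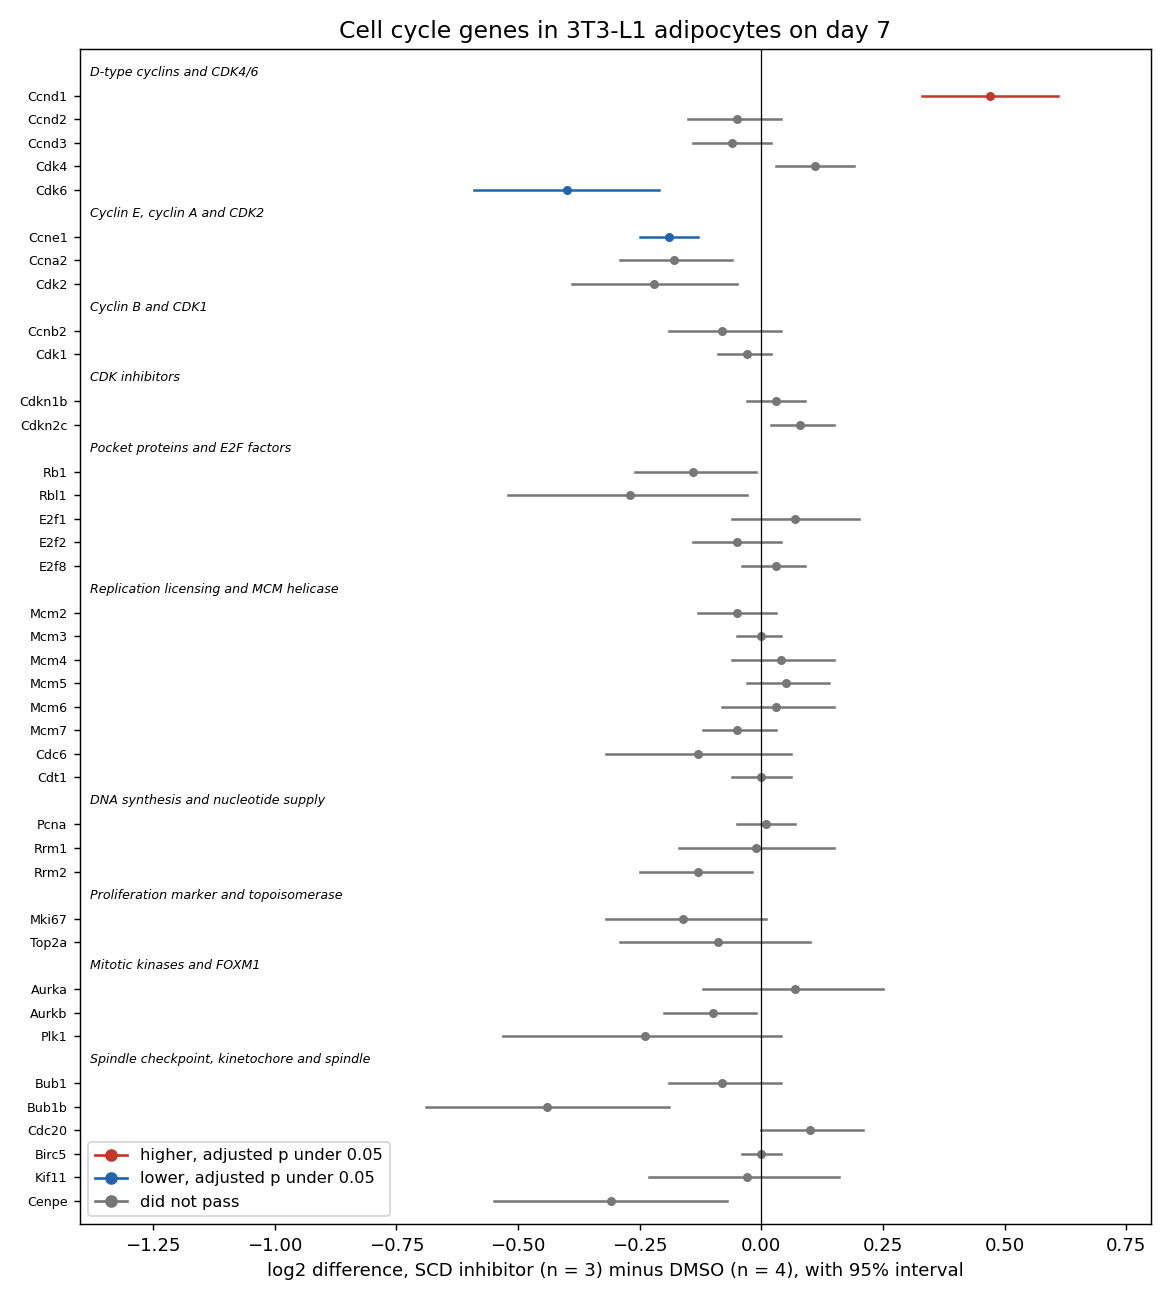
Points give the difference in log2 level, SCD inhibitor (n = 3) minus DMSO (n = 4), of each of the 39 measured genes by role, and bars the 95% interval from limma. Ccnd1 stands alone on the right at 0.47, Cdk6 and Ccne1 are the called genes on the left at -0.40 and -0.19, and the replication genes lie close to 0.

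Of the 36 genes that did not pass, 27 had a 95% interval wholly inside a 1.2-fold change in either direction, and 35 inside a 1.5-fold change, the exception being Bub1b. Over all 39 measured genes the shares were 71.8% and 92.3%, below those of all genes on the array (79.2% and 96.6%). The groups did not overlap for 8 genes. The inhibitor arrays lay wholly above the DMSO arrays for Ccnd1 and Cdk4, 5.13% of the 39 genes against 8.30% of all genes. They lay wholly below for Cdk6, Ccne1, Ccna2, Cdk2, Bub1b and Cenpe, 15.4% against 9.02%. Of these, Cenpe read near the lower end of the scale. In RNA of whole cultures, fewer dividing cells and less transcript per cell cannot be told apart.

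One inhibitor array stood apart for these genes. SCD inhibitor 1 held the single lowest of the 7 values for 20 of the 39 genes (51.3%), and for 28.1% of all genes. The other arrays held it for at most 5 genes each. Measured from the DMSO mean, the median of the 39 genes was -0.116 on SCD inhibitor 1, -0.014 on SCD inhibitor 2 and -0.027 on SCD inhibitor 3, and the DMSO arrays ran from -0.026 to 0.018. Over all genes the median of such differences on SCD inhibitor 1 was -0.014. The median level of all genes was also lowest on that array, at 5.53, beside 5.58 to 5.61 on the others. Without that array the median difference of the 39 genes was -0.014, Ccnd1 and Ccne1 kept their calls, Cdk6 did not, and Cdc20, the activator of the anaphase-promoting complex, passed as higher (log2 0.16, adjusted p = 0.021 in limma, against 0.10 with all arrays).

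**Figure D2:**
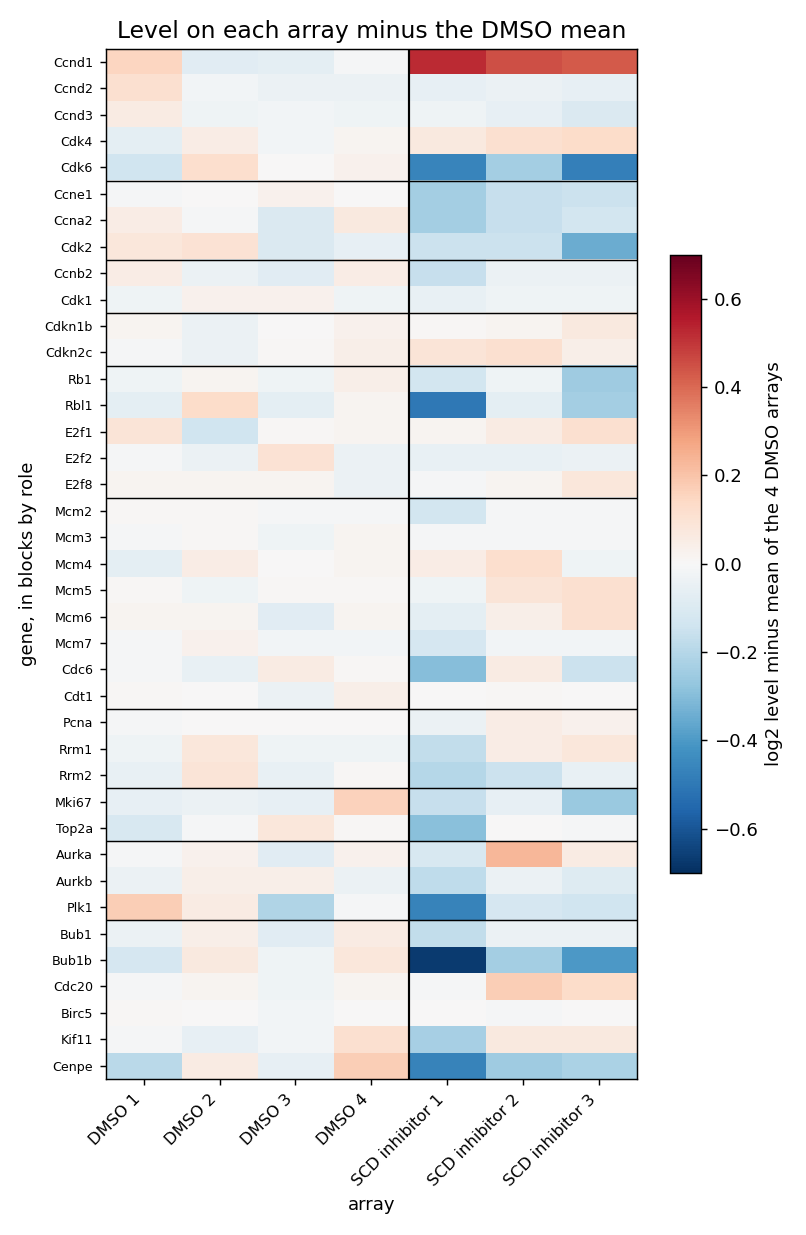
Colours give the log2 level of each of the 39 genes (vertical axis, in blocks by role) on each of the 7 arrays (horizontal axis) minus the mean of the 4 DMSO arrays. Ccnd1 is red on all inhibitor arrays and Cdk6, Ccne1, Ccna2 and Cdk2 are blue on all of them, while the column of SCD inhibitor 1 is blue for many replication and mitosis genes that are pale on the other inhibitor arrays.

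The D-type cyclins, which take up growth factor signals in G1, did not move as 1 group. Ccnd1, cyclin D1, read 8.39, 8.16, 8.17 and 8.23 on the DMSO arrays and 8.76, 8.69 and 8.67 on the inhibitor arrays. All inhibitor values lie above all DMSO values, and the gap between the groups is wider than the spread within either. The difference was 0.47 (SE 0.059, 95% interval 0.33 to 0.61, adjusted p = 0.00503 in limma). The call held in all 16 alternative fits, with differences from 0.44 to 0.52. A second row, annotated to Ccnd1 and its neighbour Lto1 together, read 6.80 in DMSO and 6.67 with the inhibitor (means), and so did not follow.

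The other D-type cyclins had differences whose intervals span 0. Ccnd2, cyclin D2, averaged 12.02 ± 0.074 in the DMSO group (SD, n = 4) and 11.97 ± 0.0096 in the inhibitor group (SD, n = 3), which differ by -0.05 with a 95% interval of -0.15 to 0.04. Ccnd3, cyclin D3, went from 10.42 ± 0.046 to 10.36 ± 0.036 (difference -0.06, interval -0.14 to 0.02). Neither interval reaches that of Ccnd1.

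Their catalytic partners differed from each other in direction. Cdk6 read 8.54, 8.80, 8.68 and 8.71 in DMSO and 8.22, 8.44 and 8.20 with the inhibitor. The groups do not overlap, although the highest inhibitor array and the lowest DMSO array are close. The decrease was 0.40 on the log2 scale (SE 0.080, adjusted p = 0.0294 in limma), and it passed in 10 of 16 alternatives. Leaving out DMSO 2, 3 or 4 ended the call (limma's adjusted p = 0.0758, 0.0877 and 0.0965), as did leaving out SCD inhibitor 1 (0.0989), SCD inhibitor 3 (0.109) or both arrays numbered 1 (0.101). Cdk4, which pairs with the same cyclins, read 11.12, 11.24, 11.17 and 11.21 in DMSO and 11.26, 11.30 and 11.32 with the inhibitor. Its inhibitor values lie just above the DMSO values, 0.11 apart on average (SE 0.032). Cdk4 missed the threshold with the arrays as deposited (limma's adjusted p = 0.104) and passed with them centred (0.0349).

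Cyclin E1, cyclin A2 and CDK2, which drive entry into S phase and its progress, were all read lower with the inhibitor. Ccne1 read 8.83, 8.84, 8.87 and 8.84 in DMSO and 8.60, 8.68 and 8.69 with the inhibitor. The DMSO arrays agree closely and every inhibitor array lies below them, so a small decrease of 0.19 passed (SE 0.027, adjusted p = 0.00808 in limma). It passed in 15 of 16 alternatives, among them every fit that left out 1 array.

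Ccna2, cyclin A2, read 7.76, 7.70, 7.61 and 7.78 in DMSO and 7.47, 7.55 and 7.58 with the inhibitor. The groups do not overlap, but the lowest DMSO array is near the highest inhibitor array, and the difference of -0.18 (SE 0.048) did not pass (adjusted p = 0.0816 in limma). It did pass without DMSO 3 (0.0453), after a further quantile normalization (0.0387), with the arrays centred (0.0425) and when the dimmer 50% of genes were dropped (0.0381). Cdk2 read 8.05, 8.07, 7.87 and 7.91 in DMSO and 7.82, 7.82 and 7.62 with the inhibitor. These groups are also separate, by a narrow margin, and the difference of -0.22 (SE 0.072) did not pass (adjusted p = 0.132 in limma).

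**Figure D3:**
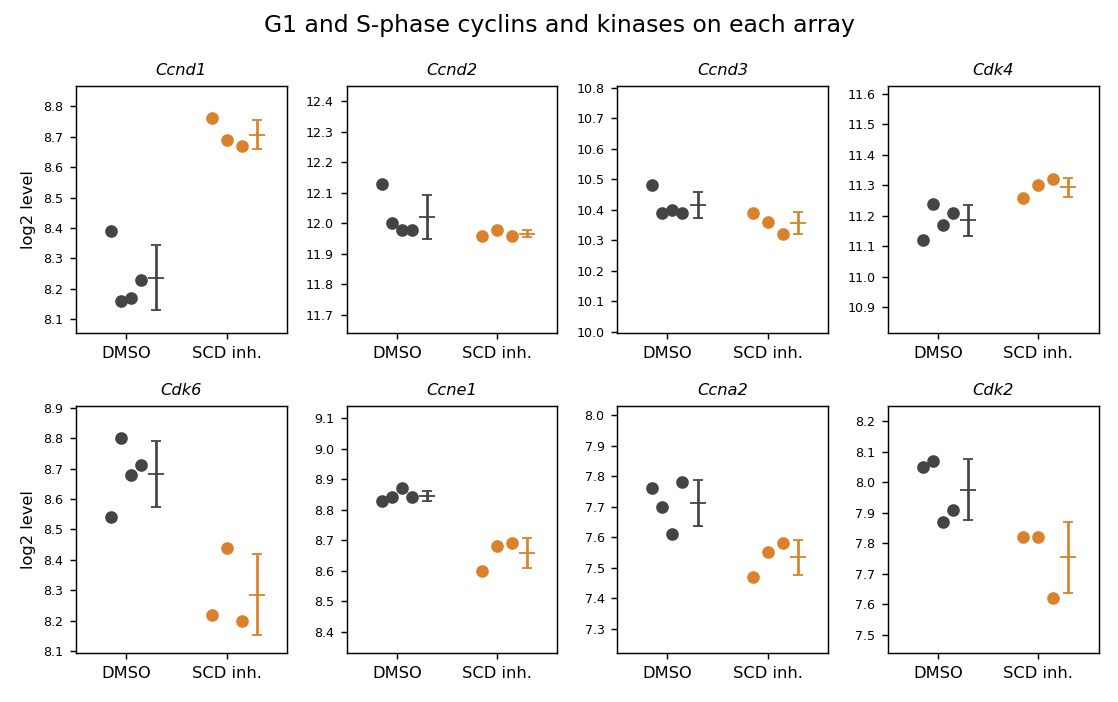
Points are the log2 levels of 8 G1 and S-phase genes on the 4 DMSO and 3 SCD inhibitor arrays, with the mean and SD beside them, and all panels span the same number of log2 units. The inhibitor points lie wholly above the DMSO points for Ccnd1 and Cdk4, wholly below for Cdk6, Ccne1, Ccna2 and Cdk2, and overlap for Ccnd2 and Ccnd3.

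E2F and the DREAM complex are known to act on cell cycle genes through short elements. Among the motifs searched here, the CCAAT box is not one of these elements. The proximal promoters of Ccne1 and Cdk6, which were called, are printed with those of Cdk1 and Mcm6, examples that did not pass. The sequences are the 250 bases before the annotated start in RefSeq (GRCm38.p6), printed 5′ to 3′ on the gene's strand. Of the 39 measured genes 33 had an entry, with 37 starts in all. Ccnd1 is not among them. Ccne1 lies at chr7:38107491-38107740 (minus strand), Cdk6 at chr5:3343643-3343892 (plus strand), Cdk1 at chr10:69352913-69353162 (minus strand) and Mcm6 at chr1:128359706-128359955 (minus strand). Capitals mark the motifs searched on both strands: the E2F site (TTTCCCGC or TTTGGCGC), the cell cycle homology region or CHR (TTTGAA or TTTAAA) and the CCAAT box (CCAAT, which reads ATTGG when it lies on the other strand).

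Ccne1: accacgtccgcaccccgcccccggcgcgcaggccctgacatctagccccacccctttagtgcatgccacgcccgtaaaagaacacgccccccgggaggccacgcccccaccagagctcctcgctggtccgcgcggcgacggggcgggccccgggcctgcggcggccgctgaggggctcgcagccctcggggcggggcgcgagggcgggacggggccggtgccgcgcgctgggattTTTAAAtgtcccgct
Cdk6: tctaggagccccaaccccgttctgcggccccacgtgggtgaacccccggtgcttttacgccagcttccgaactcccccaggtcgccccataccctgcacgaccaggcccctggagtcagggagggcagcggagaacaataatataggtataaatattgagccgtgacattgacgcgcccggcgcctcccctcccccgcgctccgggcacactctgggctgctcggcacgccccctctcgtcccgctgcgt
Cdk1: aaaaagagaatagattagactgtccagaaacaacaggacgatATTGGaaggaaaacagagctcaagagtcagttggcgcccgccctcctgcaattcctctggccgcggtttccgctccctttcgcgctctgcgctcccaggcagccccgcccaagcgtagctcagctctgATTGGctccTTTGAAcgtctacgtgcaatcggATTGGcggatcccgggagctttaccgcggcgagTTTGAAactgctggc
Mcm6: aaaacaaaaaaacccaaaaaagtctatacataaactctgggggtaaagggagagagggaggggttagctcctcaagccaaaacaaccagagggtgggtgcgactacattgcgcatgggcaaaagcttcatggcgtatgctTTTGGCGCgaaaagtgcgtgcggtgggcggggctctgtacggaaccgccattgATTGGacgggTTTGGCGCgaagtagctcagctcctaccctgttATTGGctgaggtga

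The Cdk1 window, of a gene that did not pass, holds 3 CCAAT boxes and 2 CHR motifs, the nearer CHR ending 10 bases before the start. Mcm6, which also did not pass, holds 2 E2F motifs of the same letters, from 110 to 103 and from 47 to 40 bases before the start, and 2 CCAAT boxes. In the window of Ccne1 there is 1 CHR match, from 15 to 10 bases before the start, and in that of Cdk6 none of the 3 motifs was found. The windows of other genes that did not pass also held none, among them Rbl1, Cdt1 and Cdk4. Cdk1 and Mcm6 therefore do not stand for all genes that did not pass. Over the 37 windows, 13.5% held an E2F motif, 37.8% a CHR and 70.3% a CCAAT box, beside 1.3%, 25.2% and 33.8% of all 32851 windows in the table. No motif pattern contains another, and a match of letters is not a binding site. Starts were taken as annotated, so a window may lie inside a gene rather than at its main promoter.

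The inhibitors of the cyclin-dependent kinases did not pass. Cdkn1b, which encodes p27 and holds CDK2 in check, averaged 9.08 ± 0.031 in the DMSO group (SD, n = 4) and 9.11 ± 0.035 in the inhibitor group (SD, n = 3). Cdkn2c, which encodes p18, an inhibitor of CDK4 and CDK6, was at 11.00 ± 0.033 and 11.08 ± 0.035, a difference of 0.08 (adjusted p = 0.136 in limma). Among 5 further inhibitors none was called by limma, and 1 had an unadjusted p under 0.05: Cdkn2a, which encodes p16 and p19ARF, at a difference of 0.12 (unadjusted p = 0.018). Cdkn1a, which encodes p21, went from 11.38 ± 0.015 to 11.41 ± 0.023.

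Of the 5 pocket protein and E2F genes none was called. Rb1, the retinoblastoma gene, had a difference of -0.14 (SE 0.051, adjusted p = 0.186 in limma) and its relative Rbl1, which encodes p107, one of -0.27 (SE 0.10, adjusted p = 0.188). Rbl1 read 7.08, 7.28, 7.08 and 7.17 in DMSO and 6.65, 7.08 and 6.91 with the inhibitor, so that SCD inhibitor 2 equals the lowest DMSO arrays and SCD inhibitor 1 is far below them. A dimmer second row of Rbl1 averaged 4.54 in DMSO and 4.46 with the inhibitor, a difference of -0.08. E2f1, the activator E2F, had a difference of 0.07 and E2f2 one of -0.05. E2f8, a repressor E2F, read 3.69 in DMSO and 3.72 with the inhibitor (means), near the lower end of the scale.

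The replication genes showed little difference between the groups. The 8 genes of the replicative helicase and its loading had differences from -0.13 to 0.05, and none was called. Mcm2 to Mcm7, the subunits of the MCM helicase, lay between -0.05 and 0.05, and Cdt1, which brings the helicase to origins, read 6.50 in both groups. Cdc6, its partner in loading, read 4.79, 4.75, 4.86 and 4.81 in DMSO and 4.50, 4.86 and 4.65 with the inhibitor, and the groups overlap. Pcna, the sliding clamp of DNA polymerase, had a difference of 0.01 with a 95% interval of -0.05 to 0.07. The subunits of ribonucleotide reductase, which makes deoxynucleotides, had differences of -0.01 (Rrm1) and -0.13 (Rrm2, SE 0.048, adjusted p = 0.176 in limma).

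The usual markers of dividing cells did not pass either. Mki67, which encodes the Ki-67 protein that coats mitotic chromosomes, read 5.65, 5.67, 5.65 and 5.87 in DMSO and 5.55, 5.65 and 5.45 with the inhibitor. SCD inhibitor 2 overlaps the DMSO arrays, and the difference of -0.16 had a 95% interval of -0.32 to 0.01 (adjusted p = 0.246 in limma). Top2a, the topoisomerase that untangles chromosomes, read 5.86, 5.96, 6.05 and 5.98 in DMSO and 5.68, 5.97 and 5.96 with the inhibitor. Here SCD inhibitor 1 alone lies below the DMSO arrays, and the difference was -0.09. Cdk1, the mitotic kinase, was at 8.32 ± 0.035 and 8.29 ± 0.012, with a 95% interval of the difference from -0.09 to 0.02, and Ccnb2, cyclin B2, had a difference of -0.08.

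Among 3 mitotic kinases and 6 genes of the spindle and its checkpoint none passed with all arrays. Bub1b, which encodes the checkpoint kinase BUBR1, had the widest difference of them. It read 5.55, 5.74, 5.64 and 5.75 in DMSO and 5.0, 5.43 and 5.27 with the inhibitor. All inhibitor arrays lie below all DMSO arrays, with SCD inhibitor 1 lowest, and the difference of -0.44 (SE 0.10) missed the threshold at an adjusted p of 0.0534 in limma. It passed in 6 of 15 alternatives, with adjusted p = 0.0405 without SCD inhibitor 2, 0.0141 after a further quantile normalization, 0.00622 with the arrays centred, 0.0335 when the dimmest 25% of genes were dropped, 0.0439 with trend and robust options and 0.0427 with array weights.

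Cenpe, the kinetochore motor that moves chromosomes to the spindle equator, read 3.98, 4.23, 4.11 and 4.34 in DMSO and 3.70, 3.92 and 3.95 with the inhibitor. The groups are separate by a margin smaller than the spread in DMSO, and the difference of -0.31 (SE 0.099) did not pass (adjusted p = 0.131 in limma). It did with the arrays centred (0.0307). Cenpe averaged 4.17 in DMSO and 3.86 with the inhibitor, in the lower part of the scale. The array means of the macrophage and endothelial markers, described below, ran from 4.27 to 4.34 and from 3.61 to 3.69. The partners of these genes gave smaller differences: -0.08 for Bub1, a checkpoint kinase, 0.10 for Cdc20, -0.03 for Kif11, a motor that pushes spindle poles apart, and 0.00 for Birc5, which encodes survivin. Birc5 averaged 4.26 in both groups, also in the lower part of the scale. Of the kinases, Plk1 had a difference of -0.24 (SE 0.12), Aurkb one of -0.10 (SE 0.041) and Aurka one of 0.07 (SE 0.078).

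**Figure D4:**
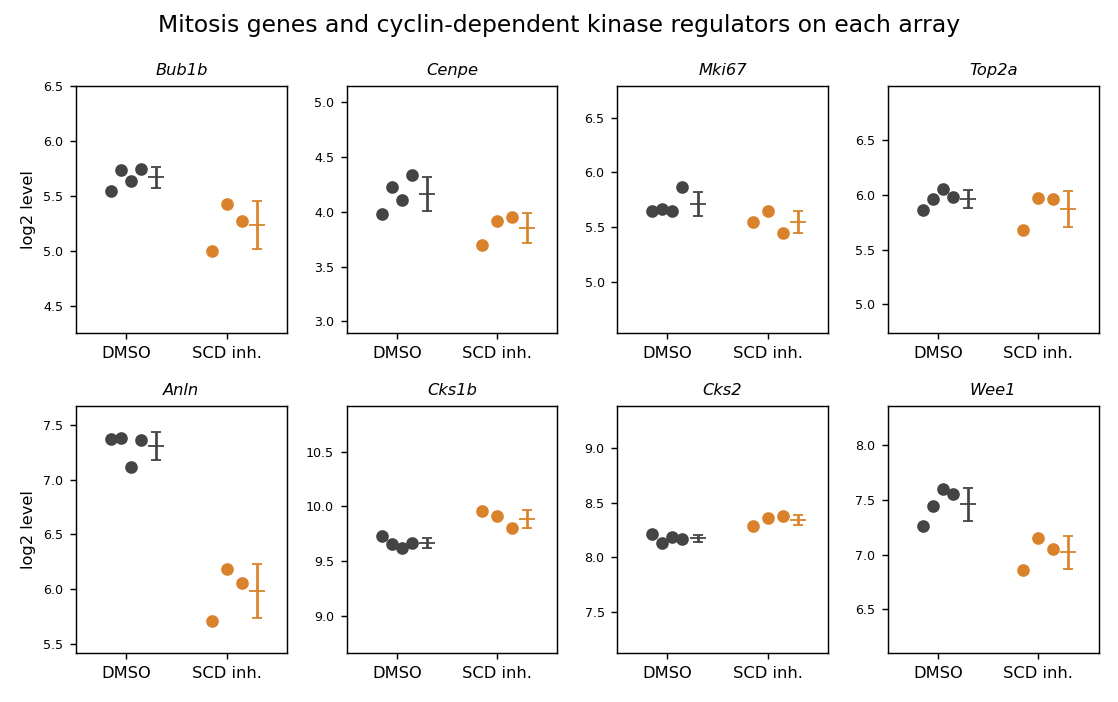
Points are the log2 levels on the 4 DMSO and 3 SCD inhibitor arrays of 4 listed mitosis genes (upper panels) and 4 further cell cycle genes (lower panels), with the mean and SD beside them, and all panels span the same number of log2 units. Anln drops by 1.33, Bub1b, Cenpe and Wee1 lie lower on all inhibitor arrays, Cks1b and Cks2 lie higher, and Mki67 and Top2a overlap.

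Beyond the list, 139 other genes of the cycle, of growth arrest and of the early growth factor response were looked up in 8 lists, and 130 of them were measured. Of the 130, 6 rose and 6 fell, which is 9.23% against 8.0% of all genes. Their median difference was -0.005. The widest change by far was that of Anln, which encodes anillin, the scaffold of the contractile ring in cytokinesis. Anln read 7.37, 7.38, 7.12 and 7.36 in DMSO and 5.71, 6.18 and 6.06 with the inhibitor. The groups are far apart, and Anln was 2.51-fold lower (log2 -1.33, SE 0.12, adjusted p = 0.00148 in limma), a call that held in all 16 alternatives. It was the only one of 36 measured spindle, kinetochore and cytokinesis genes in that list to be called, and the median of the list was -0.02. Ect2, the exchange factor that starts the contractile ring, had a difference of -0.08, and Racgap1, its partner, averaged 7.73 in both groups.

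Of the other 12 measured cyclin and kinase regulators, 2 rose and 2 fell, beside 3.62% higher and 4.37% lower of all genes. Cks1b and Cks2, small subunits that bind cyclin-dependent kinases, rose by 0.22 (SE 0.045) and 0.17 (SE 0.030), and further rows annotated to Cks2 alone differed by 0.20 and 0.19. The mean of all rows of Cks1b differed by 0.14, less than the brighter row, and passed (adjusted p = 0.0294 in limma). Wee1, the kinase that holds CDK1 inactive, fell by 0.44 (SE 0.099), and Cdc25b, a phosphatase that activates CDK1, fell by 0.27 (SE 0.063). Each of these calls ended in some alternatives. The adjusted p in limma of Cks1b was between 0.0523 and 0.113 without DMSO 1, 2, 3 or 4 or SCD inhibitor 1 or 2. That of Cks2 was between 0.052 and 0.0767 without DMSO 2, 3 or 4 or SCD inhibitor 2 or 3. For Wee1 it was between 0.0722 and 0.134 without DMSO 2, 3 or 4 or any 1 of the inhibitor arrays, and for Cdc25b, at 0.0499 with all arrays, between 0.0565 and 0.16 without any 1 array. Without both arrays numbered 1 it was 0.0956 for Cks1b, 0.0516 for Wee1 and 0.175 for Cdc25b.

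Of 13 other E2F, DREAM and MYB genes Lin52, a subunit of the MuvB core of the DREAM complex, fell by 0.27 (SE 0.040, adjusted p = 0.00985 in limma). The call of Lin52 ended without both arrays numbered 1 (adjusted p = 0.10). Of 15 origin and helicase activation genes Orc6, a subunit of the origin recognition complex, rose by 0.21 (SE 0.041). Its adjusted p in limma was between 0.0593 and 0.0893 without DMSO 2, 3 or 4 or SCD inhibitor 1 or 3, and 0.101 without both arrays numbered 1. Of 24 further genes of the replication fork none passed in limma with all arrays as deposited. Those with the smallest p in that list were Chaf1b, a histone chaperone subunit, at -0.43 (adjusted p = 0.0792), and Pola2, a subunit of DNA polymerase alpha, at 0.20 (adjusted p = 0.0903). Chaf1b passed in 4 of 16 alternatives, among them the further quantile normalization (adjusted p = 0.0411 in limma), the centred arrays (0.0251) and the fit without the dimmer 50% of genes (0.0274). Pola2 passed in 2, among them the last of these (0.0391).

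Among 12 growth arrest genes 2 rose and 2 fell, beside 3.62% higher and 4.37% lower of all genes. Gas1 and Gas6, first found in growth-arrested fibroblasts, rose by 0.46 (SE 0.064) and 0.37 (SE 0.050). Btg2, an antiproliferative gene that p53 induces, fell by 0.34 (SE 0.043), and Foxo1, a transcription factor that insulin signalling keeps out of the nucleus, fell by 0.30 (SE 0.065, adjusted p = 0.0396). The call of Foxo1 ended without DMSO 1, 2, 3 or 4 or SCD inhibitor 2 or 3 (adjusted p in limma between 0.0672 and 0.127), while Gas1 and Btg2 were called in all 16 alternatives. Gas6 was called in 14 of 16, and missed the threshold (limma's adjusted p = 0.0517) when both arrays numbered 1 were left out. Of 13 immediate early and MYC genes, Jun, a component of the AP-1 factor, rose by 0.19 (SE 0.038), with adjusted p between 0.0637 and 0.0871 without DMSO 2, 3 or 4, any 1 inhibitor array or both arrays numbered 1. The inhibitor values of Myc averaged 0.21 above DMSO, which missed the threshold (limma's adjusted p = 0.207). Over the 13 genes the differences ran from -0.32 to 0.24 with a median of 0.07. Of the 13, 2 were below 0, beside 52.7% of all genes.

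The identity of the cultures was checked with marker genes. The mean level of 10 adipocyte markers, among them Adipoq and Fabp4, ran from 11.98 to 12.05 on the DMSO arrays and from 11.98 to 12.02 on the inhibitor arrays, and none was called. The mean of 11 measured precursor and fibroblast markers ran from 8.16 to 8.25 in DMSO and from 8.52 to 8.57 with the inhibitor. Of these 11, 6 rose (Pdgfra, Pdgfrb, Dlk1, Zfp521, Col1a1 and Col3a1) and none fell, beside 3.62% higher and 4.37% lower of all genes. The means of 8 macrophage markers (4.27 to 4.34 over all arrays) and 6 endothelial markers (3.61 to 3.69) were in the lower part of the scale with no calls. Of 6 muscle markers 1 fell, Des, which encodes desmin, by 0.98. The part of the precursor markers in the values of Ccnd1, Cdk6, Ccne1 and Anln was not tested.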

How the data were processed

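The deposited values are log2 expression levels made by the authors with RMA, per the submitters' processing notes. The sources used here give no RMA version, annotation release, filter or genome build. That the scale is log2 follows from the range of values (2.23 to 13.25). Of 28996 rows 21218 carry 1 symbol, 1881 several and 5897 are not listed in the array annotation; rows with 1 symbol were used, giving 18820 genes. All 39 measured members matched a RefSeq gene by Entrez number. The 4 DMSO and 3 inhibitor arrays entered 1 model in limma 3.58.1 (R 4.3.3, with 5 residual and 1.68 prior degrees of freedom). Its p-values were adjusted by Benjamini and Hochberg over all genes. The fit was also run on simulated independent normal values, as a check of the code only. Those values lack the exact repeats between arrays that these data hold. No filter on dim genes was applied, and detection calls were not used here.

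The members, lists and alternatives were chosen with earlier results of these data known. All members were named, and from each of the 8 companion lists up to 3 called genes per direction, or the 2 with the smallest p. Ect2, Racgap1 and Myc were added after their values were seen. The number of arrays limits the precision. Alternatives tried were a further quantile normalization, median centring, a block for the replicate number, dropping dim genes, trend and robust options, array weights, the mean of a gene's rows, and leaving out arrays.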

Additional observations from a re-analysis of the deposited data

Results flagged for a closer look

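In 10 of the 55 listed or further named genes, 1 of the 4 DMSO arrays lay far from the others, measured as its gap to the nearest array over the range of the group. Chance flags about 1 in 20 such groups, and many stored values repeat exactly between arrays. The ratio was 1.000 for E2f8 (DMSO 4 at 3.65, nearest 3.71), Mcm5 (DMSO 2 at 7.46, nearest 7.50), Mcm6 (DMSO 3 at 6.13, nearest 6.23) and Pcna (DMSO 1 at 10.08, nearest 10.09). It was 0.885 for Ccnd2 (DMSO 1 at 12.13, nearest 12.00), 0.937 for Ccnd3 (DMSO 1 at 10.48, nearest 10.40) and 0.926 for Mcm7 (DMSO 2 at 8.14, nearest 8.10). It was 0.965 for Rrm1 (DMSO 2 at 8.53, nearest 8.42), 0.883 for Mki67 (DMSO 4 at 5.87, nearest 5.67) and 0.908 for Anln (DMSO 3 at 7.12, nearest 7.36).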

How the results depend on the processing

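Across 16 alternatives no named gene with a call changed direction, and 30 of the 39 listed genes were called in no fit. With the replicate block in limma, 1 listed gene was higher and 2 were lower (Ccnd1, Cdk6 and Cdk2, the last at adjusted p = 0.0275). Of the further cell cycle genes 4 were higher and 3 lower, and of all genes 437 were higher and 459 lower. Arrays with the same number correlated at 0.17, 0.14 and 0.08 in their deviations from the group means. Those with different numbers ran from -0.17 to 0.16, all below 0 except DMSO 4 with SCD inhibitor 2 (0.16). These values do not settle whether the numbers pair the samples, and the main fit used no block. Under that block the adjusted p in limma was 0.0556 for Ccne1, 0.13 for Cks2, 0.058 for Wee1, 0.184 for Cdc25b, 0.0692 for Lin52, 0.0919 for Orc6, 0.0645 for Gas6, 0.163 for Foxo1 and 0.0657 for Jun, which ended their calls, and Chaf1b (0.0416) and Pola2 (0.0495) passed. Apart from these and Cdk2, the block changed no call among the 55 genes followed through the alternatives. A further quantile normalization gave 1 higher and 4 lower listed genes, and 1032 higher and 1032 lower genes in all. Median centring gave 2 higher and 5 lower listed genes, and 1296 higher and 1030 lower genes in all. Without both arrays numbered 1 there were 1 higher and 1 lower listed gene, 3 higher and 4 lower further genes, and 434 higher and 374 lower of all genes. Leaving out 1 array at a time gave 1 to 2 higher and 1 to 3 lower listed genes, 2 to 5 higher and 3 to 4 lower further genes, and 369 to 712 higher and 541 to 643 lower of all genes. The differences of 9 listed genes that were never called changed sign in some fit, to at most 0.07 in size. Dropping the dimmest 25% of genes removed 1 listed gene, E2f8, and dropping 50% removed 8, which therefore have no value there. These 8 were E2f2, E2f8, Cdc6, Bub1, Bub1b, Birc5, Kif11 and Cenpe. Causes were not tested.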

Other observations

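Rows of the table that name a second gene beside a cell cycle gene belong to no comparison and are given as values. The row of Ccne2, cyclin E2, shared with Ints8, had a mean of 6.76 in DMSO and 6.67 with the inhibitor. That of Foxm1, the transcription factor of mitotic genes, shared with Tex52, had 5.74 and 5.72. The brighter row of Tyms, thymidylate synthase, shared with its pseudogene, had 6.91 and 6.86. The row shared by Cdc25b and Spef1 read 7.40, 7.38, 7.36 and 7.51 in DMSO and 6.81, 6.99 and 6.87 with the inhibitor, a mean difference of -0.52, beside -0.27 in the row of Cdc25b alone. A dimmer second row of Cdkn1b read 4.71, 4.71, 4.89 and 4.91 in DMSO and 4.90, 5.05 and 5.19 with the inhibitor, a mean difference of 0.24 beside 0.03 in the brighter row.

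The value of at least 1 array repeated exactly that of another for 28 of the 39 listed genes (71.8%) and for 76.9% of all genes. SCD inhibitor 1 also held the single lowest value for 53 of the 130 further genes (40.8%), beside 28.1% of all genes.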
